A study of Mus musculus with 32 samples.

Results

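The genes described here encode the actin cytoskeleton of UB/OC-1 cells: actins, proteins that bind actin monomers, cut, cap, bundle or coat actin filaments, link them to the membrane or to adhesion sites, or pull on them as myosin II. A list of 37 genes was matched by symbol to 2 oligonucleotide array designs, a and b, and 33 of them had at least 1 probe set that the platform annotation gives to that gene alone. These 33 genes had 57 probe sets, of 6137 genes with 7542 such probe sets in the whole series. UB/OC-1 is a conditionally immortal mouse line made from the embryonic organ of Corti, which holds the hair cells of hearing, and total RNA was taken on the listed days of 2 experiments, A and B. Late cells (days 8, 9, 11 and 14 of experiment A and day 9 of experiment B, n = 5 arrays per design), middle cells (days 4, 5, 6 and 7 of A and day 4 of B, n = 5) and early cells (days 1, 2 and 3 of A and day 2 of B, n = 4) were kept at 39 °C. Day 0 cells, undifferentiated, were grown at 33 °C (day 0 of A and of B, n = 2). No agent other than the change of temperature is named in the labels, so against day 0 the temperature and the time since the switch cannot be told apart, whereas late and early cells shared 39 °C. The line carries a temperature-sensitive large T antigen, which drives division at the lower temperature and is unstable at the higher one, and it is 1 cell line, so p-values reflect the spread among these arrays alone.

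Actin exists as monomers and as filaments, and the balance between them is set by proteins such as thymosins, which hold monomers, profilin, which feeds them to growing filament ends, and cofilin and gelsolin, which cut filaments. Filaments bound by tropomyosin, transgelins, alpha-actinin and myosin II form contractile bundles that end in focal adhesions containing zyxin and vinculin, while the Arp2/3 complex builds branched networks. In hair cells of the inner ear, parallel bundles of beta- and gamma-actin form the core of the stereocilia, and radixin links them to the membrane.

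Of the 57 probe sets, 51 (31 genes) were above a floor for dim values on at least 2 of the 16 arrays of their design and were tested. The floor was an intensity of 141 (design a) or 198 (design b), to which lower values were raised. The other 6 were 1 probe set each of Actn1, Actn4, Capg and Msn, which had a second, tested one, and the lone probe sets of 2 genes, of which Vcl encodes vinculin. Arpc1b and Myl6 lay only on probe sets shared with other symbols, and Flna and Myl9 had none here. Names of 22 of the 57 probe sets end in f_at, which marks probes shared within a gene family, so the gene that they report is uncertain. Among those described below this holds for the probe sets of Actb, Actg1, Tmsb10, Pfn1, Cfl1, Gsn, Capg, Capzb, 1 of Actn4 and 2 of Marcks.

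Most calls were decreases, and later phases held more of them. Late against day 0, 10 probe sets of 9 genes fell (Acta2, Tmsb10, Pfn1 with 2, Cfl1, Actn1, Tpm1, Tagln, Tagln2 and Zyx), Arpc5 also passed as lower, 1 rose (Gsn) and 39 did not pass an adjusted p of 0.05 in limma. That is 23.5% of the 51 probe sets called, against a background of 10.9% among the 7726 probe sets tested on both designs, with 21.6% called lower (background 6.08%) and 1.96% called higher (background 4.84%). Arpc5 met the filter on dim values only through day 0 and 1 early array, so its direction was fixed by the filter, and without it 20% of the other 50 probe sets were called lower late. Acta2, still counted in that share, was at the floor on every late array, so its late change could only be a decrease. In the middle phase 6, Arpc5 among them, were lower and 1 rose relative to day 0 (13.7%, background 8.19%, of which 4.58% lower and 3.61% higher). Early against day 0 both Gsn probe sets rose and none passed lower (3.92%, background 3.49%, of which 1.45% higher and 2.05% lower). Late against early, at the same temperature, 3 fell and none rose (5.88%, background 0.984%, of which 0.557% lower), namely Acta2, Tmsb10 and Tpm1. Acta2 could only fall here too, whereas the called probe sets of Tmsb10 and Tpm1 were above the floor on all 16 arrays. At an unadjusted p under 0.05 in limma, 4 of 51 were lower early than at day 0 (7.65% of all 7726) and 2 were higher late than early (5.03% of all). A natural spline in day changed over time for 14 (27.5%, background 9.73%).

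Experiment pairs the samples, so it was also fitted as a replicate block. Then 16 of 51 passed late (background 14.5% of 7726), 12 of 51 in the middle phase (background 12.4%) and 3 of 51 early (background 6.07%). Late against early 8 of 51 passed (background 2.38%), and in the time course 23 of 51 (background 16.1%). The median change over the 51 probe sets was -0.40 on the log2 scale late against day 0, where all 7726 tested had 0.11. Late against early the members' median was -0.47 and that of all tested probe sets 0.05, and 46 of 51 members had a negative change (3256 of 7726 in all). Early against day 0 the medians were -0.003 for the members and 0.05 for all, and 26 of 51 members had a negative change (3039 of 7726 in all). In bulk RNA of a culture, fewer cells that express a gene and less of its RNA per cell cannot be told apart.

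**Figure D1:**
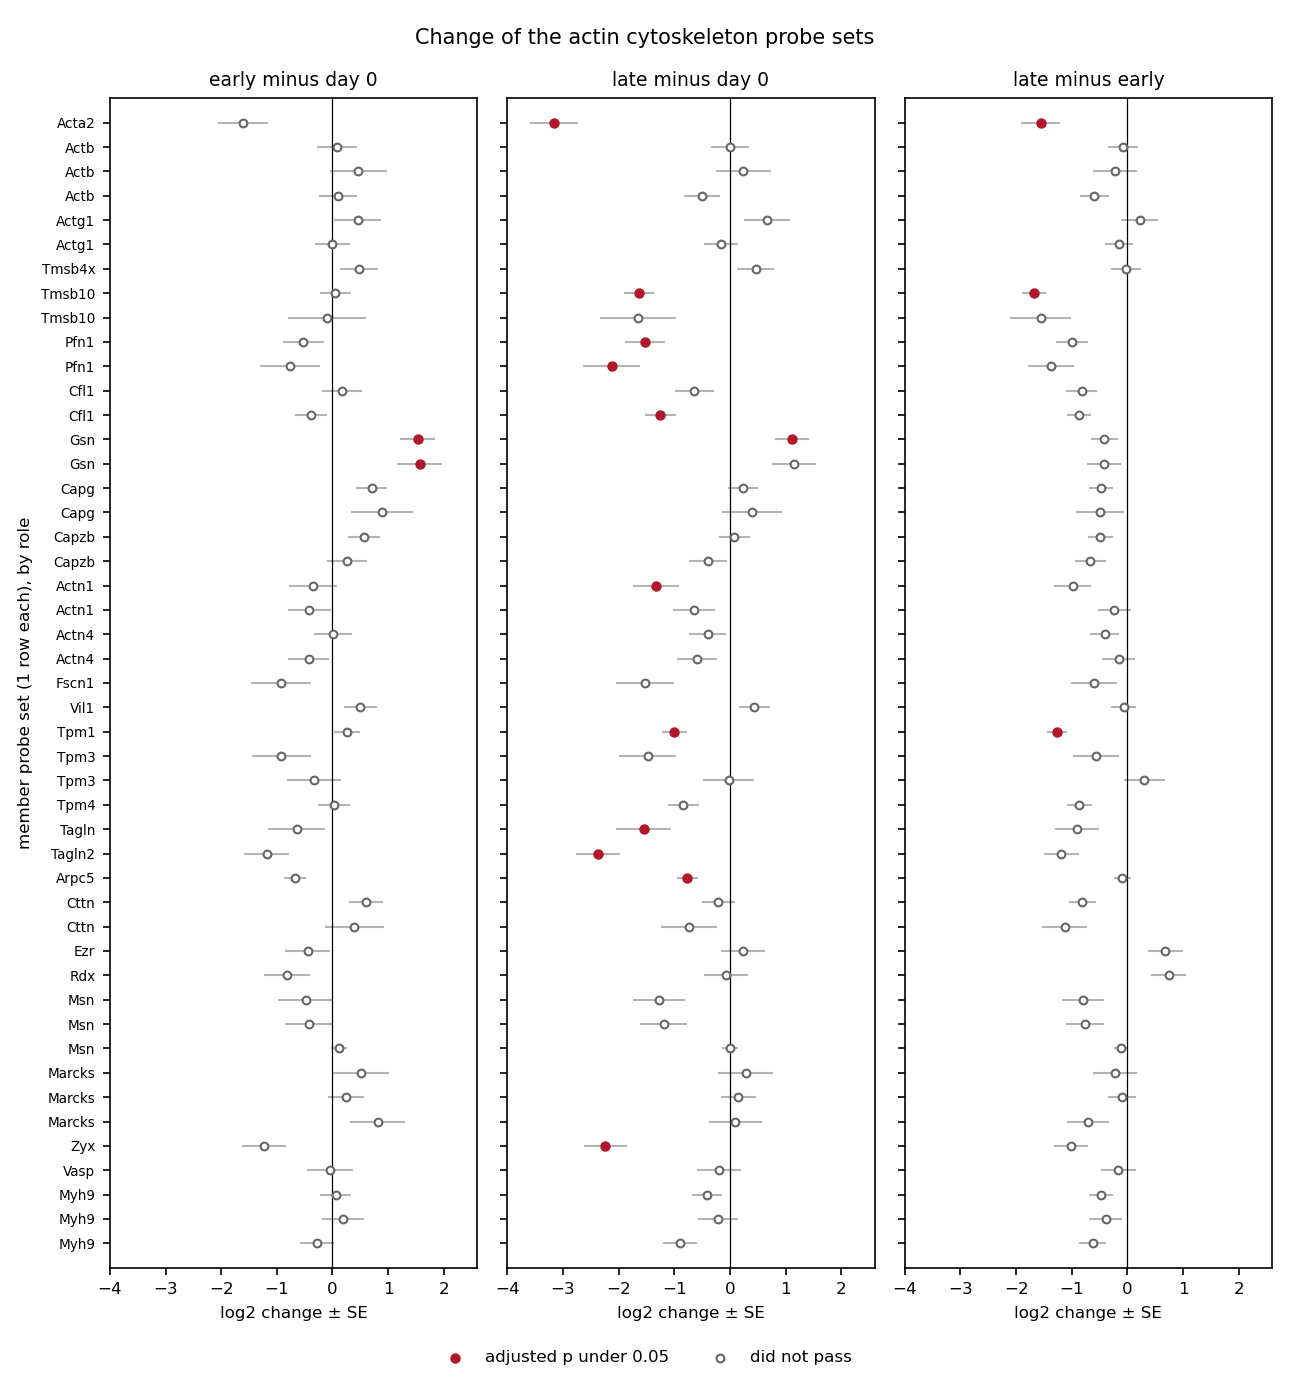
Log2 change (x axis, points, with bars of 1 SE) of the tested probe sets of the genes described here, in rows by role, early against day 0 (left), late against day 0 (centre) and late against early (right). Filled points passed an adjusted p of 0.05. Gsn is the gene with filled points above 0, and in the centre panel 11 filled points, Arpc5 included, lie below 0.

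Among the actins, Acta2 encodes smooth muscle alpha-actin, an actin of contractile stress fibres. Its probe set (X13297_s_at, design b) read 3129 on day 0 of experiment A, 929, 903 and 347 on days 1, 2 and 3, 80, 210, -30 and -148 on days 4, 5, 6 and 7, and -140, -127, -72 and 151 on days 8, 9, 11 and 14. In experiment B it read 1001, 392, -58 and -81 on days 0, 2, 4 and 9. Every late array and 4 of 5 middle arrays were thus at the floor of 198, and neither group overlapped day 0. Acta2 met the filter on dim values only through day 0, early and 1 middle array, so a late change could only be a decrease. Late intensity was at least 8.94-fold lower than at day 0 (log2 change -3.16 ± 0.44, SE, adjusted p = 0.000124, limma, n = 5 and 2), and middle intensity 8.83-fold lower, a low estimate (adjusted p = 0.00017). Early arrays lay below both day 0 arrays (log2 change -1.61 ± 0.45), which did not pass (adjusted p = 0.0582) but did with experiment as a block (adjusted p = 0.0153). The early decrease was 3.05-fold, and it was 1.72-fold without day 0 of A (adjusted p = 0.559) and 5.38-fold without day 0 of B (adjusted p = 0.0152). Late against early Acta2 fell at least 2.94-fold (adjusted p = 0.0371), a call lost in 10 of the 16 fits that leave out 1 culture (without day 1, 2, 4, 5, 7, 8, 9, 11 or 14 of A or day 9 of B, adjusted p from 0.0537 to 0.184). The size of the late decrease moved with the day 0 array used, at 5.06-fold without day 0 of A and 15.8-fold without day 0 of B (middle 5.0-fold and 15.6-fold), and with the floor, from 4.58-fold with the higher floor to 17.9-fold with the lower one.

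None of the 5 probe sets of the cytoplasmic actins passed in limma between phases, and at an unadjusted p under 0.05 none was past the threshold against day 0 (13.1% of all tested early, 19.5% in the middle phase and 22.4% late) and 1 was late against early (773 of 7726 in all). Actb encodes beta-actin, and its brightest probe set (AA590859_f_at, design a) read 7979 on day 0 of experiment A, 8859, 6858 and 5645 on days 1 to 3, 5189, 6614, 5496 and 6287 on days 4 to 7 and 6926, 5547, 7031 and 5719 on days 8, 9, 11 and 14. The 4 arrays of experiment B read 4174, 4035, 3008 and 4177 on days 0, 2, 4 and 9. Late and day 0 arrays overlapped, with means of 5880 ± 1170 late and 6076 ± 2690 at day 0 (SD, n = 5 and 2) and a log2 change of 0.0023 ± 0.34. The other Actb probe sets had late changes of 0.24 ± 0.50 and -0.49 ± 0.32, and none of the 3 passed (adjusted p from 0.413 to 1).

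Actg1 encodes gamma-actin. On design b its probe set read 18330 on day 0 of A, 24525, 18192 and 13225 on days 1 to 3, 14648, 17352, 17671 and 20334 on days 4 to 7 and 17784, 18328, 35618 and 17805 on days 8, 9, 11 and 14. Its readings in B were 7806, 12125, 9275 and 12233 on days 0, 2, 4 and 9. The groups overlapped, the late change was 0.67 ± 0.42 (adjusted p = 0.374), and the array of day 11 stood above the others. The design a probe set m21495_f_at had a late change of -0.15 ± 0.30 (adjusted p = 0.811).

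Promoters are shown for Acta2 and Tagln2, which fell, and for Actg1, whose change did not pass, because muscle and cytoskeletal actin genes are textbook targets of serum response factor through the CArG box. Each is the 250 bases before the gene's start, 5′ to 3′ on the gene's strand, from RefSeq (build GRCm38.p6), with CArG boxes or boxes that differ from one at 1 letter in capitals. Acta2 lies at chr19:34255374-34255623 on the minus strand, Tagln2 at chr1:172499996-172500245 on the plus strand and Actg1 at chr11:120348496-120348745 on the minus strand.
Acta2: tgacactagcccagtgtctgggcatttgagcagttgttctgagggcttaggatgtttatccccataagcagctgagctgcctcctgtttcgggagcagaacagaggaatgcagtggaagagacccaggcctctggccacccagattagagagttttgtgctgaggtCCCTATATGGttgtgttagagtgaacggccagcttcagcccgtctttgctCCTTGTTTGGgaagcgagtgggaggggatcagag
Tagln2: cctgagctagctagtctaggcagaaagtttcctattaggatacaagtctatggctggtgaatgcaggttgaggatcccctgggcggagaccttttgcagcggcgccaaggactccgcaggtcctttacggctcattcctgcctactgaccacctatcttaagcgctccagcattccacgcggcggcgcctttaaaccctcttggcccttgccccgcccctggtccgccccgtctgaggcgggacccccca
Actg1: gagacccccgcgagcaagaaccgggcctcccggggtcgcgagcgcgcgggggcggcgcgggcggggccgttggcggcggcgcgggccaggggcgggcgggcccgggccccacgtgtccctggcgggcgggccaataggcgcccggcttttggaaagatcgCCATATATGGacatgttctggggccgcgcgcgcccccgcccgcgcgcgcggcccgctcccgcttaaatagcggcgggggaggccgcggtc
The Actg1 window holds an exact box whose first base is at position -90 from the start, the Acta2 window holds 2 boxes with 1 letter changed, at -84 and -34, and the Tagln2 window holds neither. The box reads the same way on both strands, so 1 search covers both. Windows that also take in 50 bases after the start were given for 32 of the 37 listed genes. An exact box lay in 5 of the 32 (15.6%: Actg1, Myl6, Myl9, Vcl and Vil1), against 488 of 27025 genes of the table (1.81%). Among genes with a tested probe set it lay in 2 of 26 members (7.69%) and 61 of 3402 genes in all (1.79%), and it lay in 0 of the 9 members with a window that passed lower late. Tagln, which also passed lower late, had no window and was not searched. With 1 letter allowed to differ, a search added after seeing the data, the share was 14 of 32 members (43.8%), 3 of the 9 that passed lower late (33.3%: Acta2, Cfl1 and Tpm1) and 6419 of 27025 genes (23.8%). A match of letters is a description and shows no binding, and no match says only that these letters are not in these windows.

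Of 7 probe sets of the 4 genes for monomer-binding proteins, 4 fell late against day 0 and 3 did not pass (6.08% of all tested were called lower). Tmsb10 encodes thymosin beta-10, which holds actin monomers, and its probe set aa537404_f_at (design a) read 5255 on day 0 of A, 7549, 4718 and 4249 on days 1 to 3, 3421, 2242, 2219 and 2288 on days 4 to 7 and 2031, 1913, 1318 and 1366 on days 8, 9, 11 and 14. Experiment B gave 5113, 5551, 2848 and 1901 on days 0, 2, 4 and 9. Late arrays lay below all early and day 0 arrays, and early arrays lay on either side of day 0. Tmsb10 was 3.09-fold lower late than at day 0 (log2 change -1.63 ± 0.27, adjusted p = 0.000573) and 3.21-fold lower late than early (-1.68 ± 0.21, adjusted p = 0.00111), and both calls held in every alternative that was run. The middle decrease of 2.02-fold (adjusted p = 0.0222) was lost without day 0 of A (adjusted p = 0.116), day 0 of B (0.133), day 5 of A (0.0522) or day 7 of A (0.0523). The second probe set, AA230776_f_at, had a late change of -1.65 ± 0.68, not past the threshold (adjusted p = 0.144). Late against early it changed by -1.56 ± 0.55 (adjusted p = 0.252) and passed with experiment as a block (adjusted p = 0.0138). Tmsb4x, for thymosin beta-4, had 1 dim probe set, between 14 and 326 on all arrays, with a late change of 0.46 ± 0.33 (adjusted p = 0.461).

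Profilin and cofilin are the proteins that add monomers to filament ends and that sever aged filaments. Pfn1 (profilin 1) had 2 probe sets on design b, and the first read 2768 on day 0 of A, 2694, 2016 and 2061 on days 1 to 3, 1971, 1279, 1243 and 1684 on days 4 to 7 and 1033, 1528, 946 and 1309 on days 8, 9, 11 and 14. This probe set read 4885, 3830, 2710 and 1762 on days 0, 2, 4 and 9 of B. The second, X14425_f_at, read 3282 on day 0 of A, 1739, 1843 and 2209 on days 1 to 3, 1433, 1265, 1555 and 1322 on days 4 to 7, 1015, 1487, 265 and 1217 on days 8, 9, 11 and 14, and 4710, 4109, 2615 and 1209 in B. On both, late arrays lay below both day 0 arrays, and day 0 of B was the brightest array. Late intensity was 2.87-fold lower than at day 0 by the first (log2 change -1.52 ± 0.36, adjusted p = 0.00897) and 4.37-fold lower by the second (-2.13 ± 0.52, adjusted p = 0.0106). Without day 0 of B neither passed (adjusted p = 0.237 and 0.158). Late against early the first did not pass (-0.999 ± 0.29, adjusted p = 0.126) but did with experiment as a block (adjusted p = 0.011). Its middle change of -1.11 ± 0.36 behaved likewise (adjusted p = 0.0667, and 0.0235 with the block).

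Cfl1 (cofilin 1) read 11824 on day 0 of A by probe set d00472_f_at (design a), 10845, 6652 and 6993 on days 1 to 3, 4803, 4914, 3971 and 4331 on days 4 to 7 and 6398, 4266, 3383 and 3176 on days 8, 9, 11 and 14. In B it read 8707, 7264, 4261 and 4846. All 10 middle and late arrays lay below both day 0 arrays and below the 4 early ones. Cfl1 fell 2.38-fold late (log2 change -1.25 ± 0.27, adjusted p = 0.00501) and 2.28-fold in the middle phase (adjusted p = 0.00866), and without day 0 of A these had an adjusted p of 0.0849 late and 0.123 in the middle phase. Late against early it changed by -0.87 ± 0.22 (adjusted p = 0.0704, and 0.0283 with experiment as a block). The design b probe set had a late change of -0.64 ± 0.35 (adjusted p = 0.3).

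**Figure D2:**
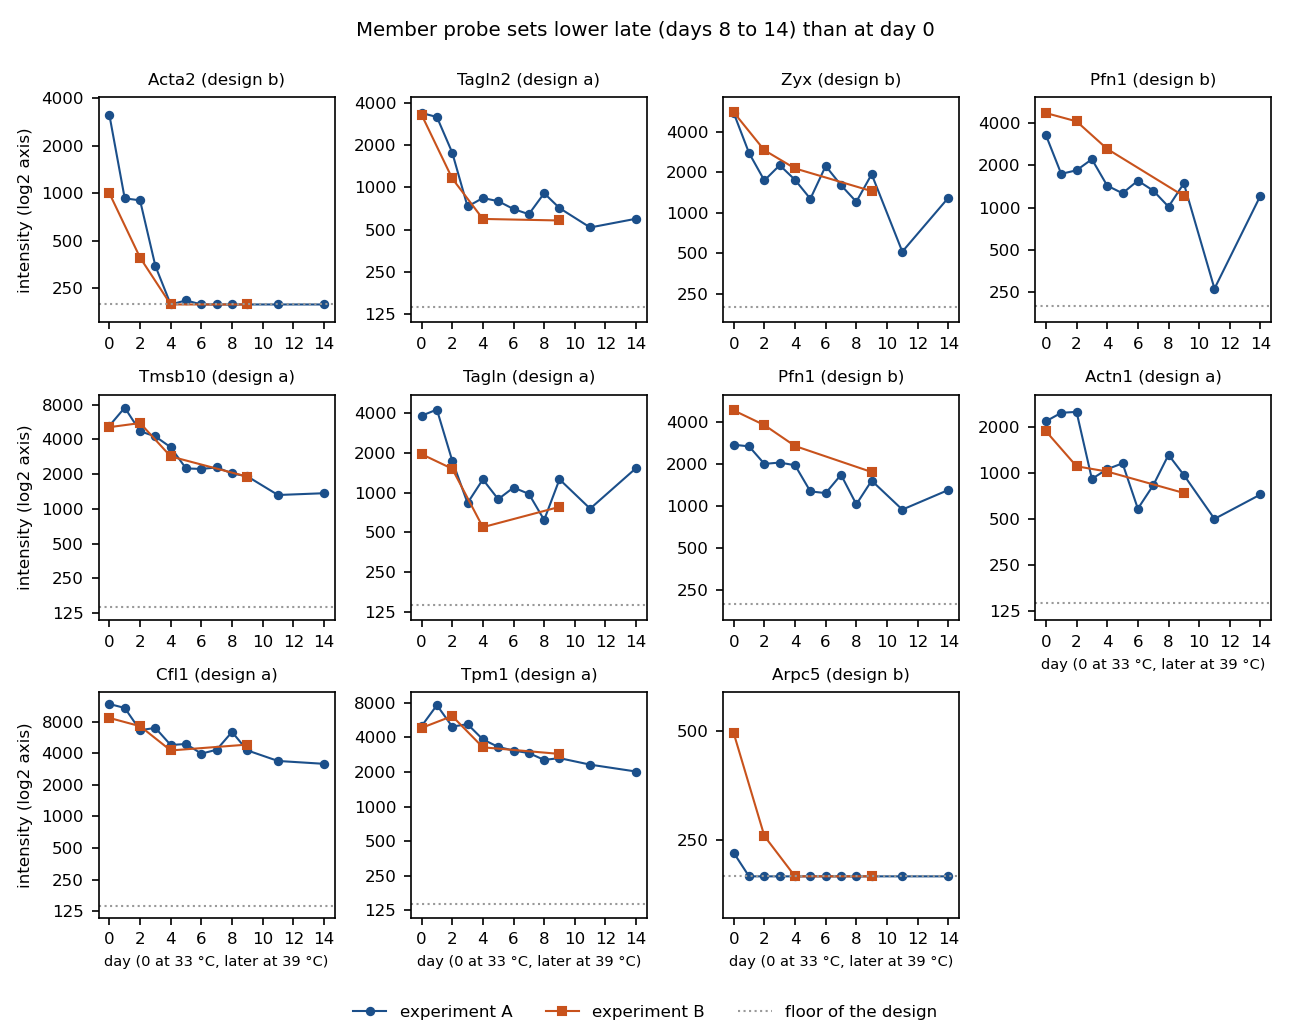
Intensity (y axis, log2 scale, values below the floor drawn at it) by day (x axis) of the 11 probe sets that passed lower late against day 0, for experiments A (circles) and B (squares), with the floor of the design dotted. Acta2 read 210 or less from day 4 on, Arpc5 was at the floor on most arrays, and Tmsb10 and Tpm1 were lowest on days 11 and 14 of A.

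Among the severing and capping proteins, gelsolin, which severs filaments and caps their ends, was the one whose gene (Gsn) rose. Its design b probe set read 675 on day 0 of A, 2097, 2058 and 2335 on days 1 to 3, 2245, 2112, 1681 and 2284 on days 4 to 7 and 1328, 1787, 2871 and 1224 on days 8, 9, 11 and 14. Experiment B read 926, 2690, 2532 and 1784 on days 0, 2, 4 and 9. All 14 arrays at 39 °C were thus above both at 33 °C, and the step lay between day 0 and the first array after it in each experiment. Gsn was 2.89-fold higher early than at day 0 (log2 change 1.53 ± 0.32, adjusted p = 0.00855), 2.72-fold higher in the middle phase (1.44 ± 0.30, adjusted p = 0.00473) and 2.17-fold higher late (1.12 ± 0.30, adjusted p = 0.0229). Late against early the change was -0.41 ± 0.24 (adjusted p = 0.641). Without day 0 of A the adjusted p was 0.102 early, 0.0796 in the middle phase and 0.188 late, and without day 0 of B it was 0.0603 late.

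On design a the Gsn probe set j04953_f_at read 523 on day 0 of A, 1251, 3151 and 1062 on days 1 to 3, 1416, 1273, 661 and 1048 on days 4 to 7, 2009, 1202, 961 and 962 on days 8, 9, 11 and 14, and 596, 1799, 1310 and 1309 on days 0, 2, 4 and 9 of B. Here too the arrays at 39 °C were above both at 33 °C. It was 2.97-fold higher early (1.57 ± 0.40, adjusted p = 0.0355), a call lost without day 0 of A (adjusted p = 0.168), day 0 of B (0.16), day 2 of A (0.091) or day 2 of B (0.0661). Its late change of 1.15 ± 0.39 did not pass (adjusted p = 0.0691) but did with experiment as a block (adjusted p = 0.0443). The capping proteins Capg and Capzb did not pass between any phases tested. Their late changes were 0.39 ± 0.54 and 0.23 ± 0.27 for Capg and 0.08 ± 0.28 and -0.40 ± 0.35 for Capzb.

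**Figure D3:**
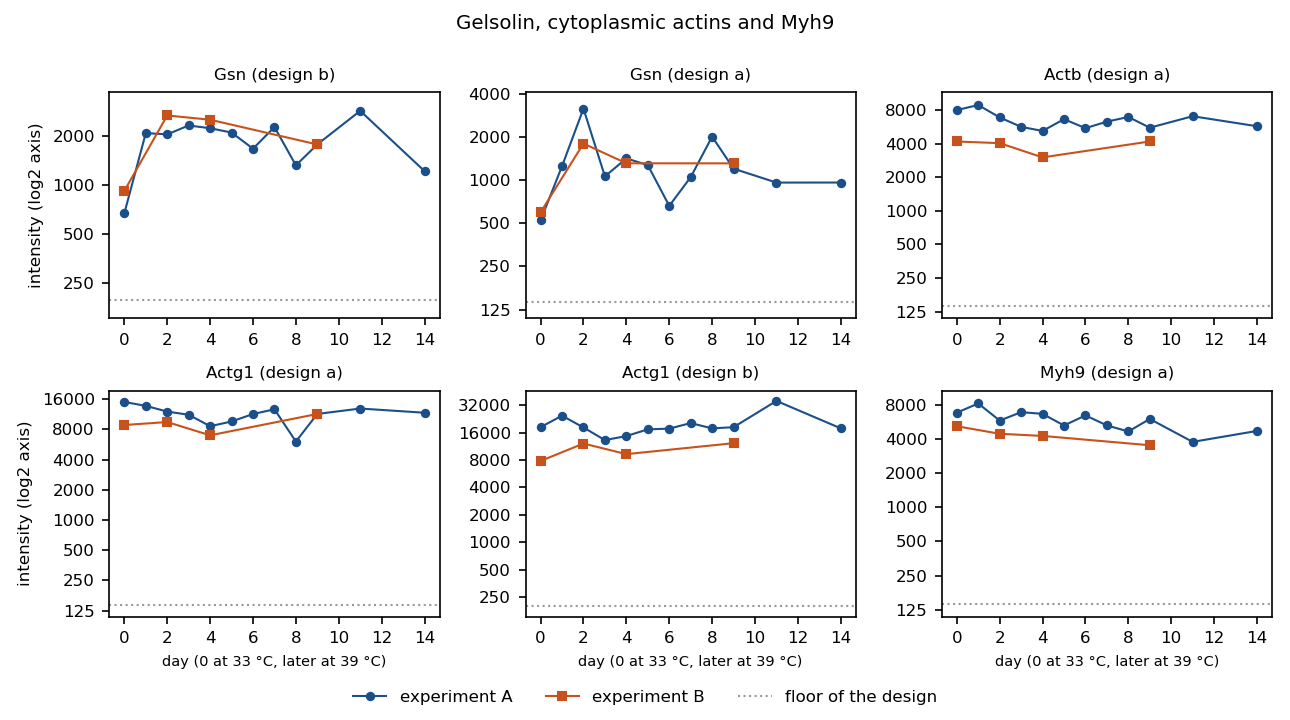
Intensity (y axis, log2 scale) by day (x axis) of both Gsn probe sets, the brightest Actb probe set and the Actg1 and Myh9 probe sets named on the panels, for experiments A (circles) and B (squares), with the floor dotted. In both Gsn panels the lowest point of each experiment is its day 0.

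Tropomyosins and the transgelins coat filaments, and 3 of the 6 probe sets of this role fell late (background 6.08%). Tagln2, for transgelin 2, read 3396 on day 0 of A by aa120653_s_at (design a), 3179, 1772 and 730 on days 1 to 3, 839, 797, 700 and 643 on days 4 to 7 and 908, 711, 517 and 597 on days 8, 9, 11 and 14. It read 3300, 1158, 595 and 580 on days 0, 2, 4 and 9 of B. Arrays from day 3 on read at most 908, and the middle and late arrays lay below both day 0 arrays. Tagln2 fell 5.15-fold late (log2 change -2.37 ± 0.39, adjusted p = 0.000653) and 4.72-fold in the middle phase (-2.24 ± 0.39, adjusted p = 0.00106), and both calls held in every alternative that was run. Late against early it did not pass (-1.19 ± 0.32, adjusted p = 0.0874) but did with experiment as a block (adjusted p = 0.0415).

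Tagln, for transgelin, a marker of smooth muscle, read 3833 on day 0 of A by l41154_s_at (design a), 4267, 1751 and 835 on days 1 to 3, 1261, 893, 1094 and 980 on days 4 to 7, 622, 1263, 757 and 1538 on days 8, 9, 11 and 14, and 1960, 1519, 548 and 781 in B. Late arrays lay below both day 0 arrays, which differed from each other, and early arrays lay on either side of them. The late decrease was 2.93-fold (log2 change -1.55 ± 0.49, adjusted p = 0.048). That call was lost in 12 of the 16 fits without 1 culture (adjusted p from 0.0527 to 0.333, the highest without day 0 of A) and held only without day 1, 3 or 14 of A or day 4 of B. In the middle phase the change of -1.57 ± 0.49 did not pass (adjusted p = 0.0544) but did with experiment as a block (adjusted p = 0.0166).

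Tpm1, for a tropomyosin, read 4994 on day 0 of A by m22479_s_at (design a), 7597, 4951 and 5193 on days 1 to 3, 3828, 3297, 3064 and 2913 on days 4 to 7 and 2541, 2633, 2311 and 2013 on days 8, 9, 11 and 14. It read 4821, 6107, 3269 and 2865 in B. Early arrays were at or above day 0 in all but 1 comparison with the array of the same experiment, and late arrays lay below both groups. Tpm1 fell 2.39-fold late against early (-1.26 ± 0.18, adjusted p = 0.00255), a call held in every alternative that was run. It fell 2.0-fold late against day 0 (-0.999 ± 0.22, adjusted p = 0.00593), a call lost without day 0 of B (adjusted p = 0.054). Tpm4 had a late change of -0.84 ± 0.28 (adjusted p = 0.0646) and passed in the time course (adjusted p = 0.00824). Late against early it changed by -0.87 ± 0.22 (adjusted p = 0.0768, and 0.0286 with the block). Tpm3 had late changes of -1.48 ± 0.51 (design b) and -0.02 ± 0.46 (design a), and neither passed (adjusted p = 0.0766 and 1), while the design b probe set passed in the time course (adjusted p = 0.0322).

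Among the bundling proteins, Actn1, the alpha-actinin that ties stress fibres together, fell late on 1 of its 2 tested probe sets. This one, aa184116_s_at (design a), read 2195 on day 0 of A, 2497, 2532 and 918 on days 1 to 3, 1064, 1162, 585 and 832 on days 4 to 7, 1321, 974, 501 and 725 on days 8, 9, 11 and 14, and 1890, 1111, 1026 and 742 in B. Late arrays lay below both day 0 arrays, by 2.52-fold on average (log2 change -1.33 ± 0.41, adjusted p = 0.0446). The call was lost in 9 of the 16 fits without 1 culture (without day 0, 4, 5, 7, 9, 11 or 14 of A or day 0 or 9 of B, adjusted p from 0.0534 to 0.193). Actn4, the other non-muscle alpha-actinin, had late changes of -0.40 ± 0.33 and -0.59 ± 0.36, and Vil1, villin of microvilli, 0.44 ± 0.28, and none of these 3 passed. Fscn1, fascin of filopodial bundles, had a late change of -1.53 ± 0.52, which missed the threshold (adjusted p = 0.0699) but passed with experiment as a block (adjusted p = 0.0428).

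At focal adhesions, Zyx encodes zyxin, a focal adhesion and stress fibre protein. Its probe set y07711_s_at (design b) read 5526 on day 0 of A, 2784, 1739 and 2260 on days 1 to 3, 1757, 1270, 2228 and 1604 on days 4 to 7 and 1207, 1935, 513 and 1291 on days 8, 9, 11 and 14, and in B it read 5595, 2919, 2137 and 1449. The day 0 arrays of A and B were nearly alike, and all 14 arrays at 39 °C lay below them. Zyx fell 4.73-fold late (log2 change -2.24 ± 0.39, adjusted p = 0.00087), a call held in every alternative that was run, and 3.15-fold in the middle phase (adjusted p = 0.0103), lost without day 0 of A (adjusted p = 0.0684) or of B (0.0943). The early change of -1.23 ± 0.40 did not pass (adjusted p = 0.115). Vasp, which lengthens filaments at adhesions, had a late change of -0.20 ± 0.40 (adjusted p = 0.811), and Vcl stayed between -130 and 214.

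Arpc5, a subunit of the Arp2/3 complex, was dim: w19022_s_at (design b) read 230 on day 0 of A, 89, 20 and 137 on days 1 to 3, 107, -128, -130 and 69 on days 4 to 7, 22, 46, -26 and 104 on days 8, 9, 11 and 14, and 493, 256, 188 and 195 in B. Only the 2 day 0 arrays and day 2 of B were above the floor of 198, so this probe set was tested because of the group where it was bright, and its decrease is given as a description. Late intensity was at least 1.70-fold lower than at day 0 (log2 change -0.77 ± 0.19), with the same bound in the middle phase. The change was -0.22 in experiment A and -1.32 in experiment B, and without day 0 of B it did not pass (adjusted p = 0.487 late and 0.507 in the middle phase). Cttn, cortactin, which binds branched filaments, had late changes of -0.21 ± 0.30 and -0.73 ± 0.51, and neither passed.

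None of the 8 probe sets of the membrane linkers passed in limma between phases, while 2 had an unadjusted p under 0.05 late against day 0 (22.4% of all tested) and 4 late against early (773 of 7726 in all). Of these 4, Ezr (log2 change 0.68) and Rdx (0.74) were higher and both Msn probe sets lower (-0.79 and -0.77). Ezrin, radixin and moesin tie filaments to the membrane, and their late changes were 0.24 ± 0.39 for Ezr, -0.08 ± 0.40 for Rdx and -1.28 ± 0.47 and -1.19 ± 0.42 for the 2 brighter Msn probe sets (adjusted p = 0.0971 and 0.0844). With experiment as a block the first Msn probe set passed late (adjusted p = 0.0419) and in the middle phase (adjusted p = 0.0235). Marcks, a membrane-bound protein that binds filaments, had late changes of 0.29 ± 0.50, 0.15 ± 0.31 and 0.10 ± 0.47, and the second of these probe sets passed higher in the middle phase with the block (adjusted p = 0.0309).

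Myh9 encodes the heavy chain of non-muscle myosin IIA. Its brightest probe set (aa624011_at, design a) read 6846 on day 0 of A, 8263, 5834 and 6920 on days 1 to 3, 6689, 5277, 6480 and 5289 on days 4 to 7, 4674, 6028, 3783 and 4727 on days 8, 9, 11 and 14, and 5200, 4463, 4270 and 3534 in B. Late and day 0 arrays overlapped, and the change of -0.42 ± 0.27 did not pass (adjusted p = 0.411). The design b probe set had a late change of -0.90 ± 0.30 (adjusted p = 0.0664) and passed with the block (adjusted p = 0.0254), as it did in the middle phase (-0.82 ± 0.30, adjusted p = 0.11, and 0.0488 with the block).

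The 2 experiments could be set side by side on days 4 and 9 against their own day 0. Of the 51 probe sets, 22 were lower on both days in both experiments, 7 were higher on both and 22 were mixed, where a tie at the floor counts as mixed. The same count was not made over all tested probe sets, so these numbers only describe the members. For Acta2 the day 9 difference was -3.98 in A and -2.34 in B, both set by the floor, and for Tagln2 it was -2.26 in A and -2.51 in B. The 2 Pfn1 probe sets were -0.86 and -1.14 in A and -1.47 and -1.96 in B. The days between day 0 and day 4 differed among the members that fell: Acta2, Tagln2 and Zyx were below day 0 on day 2 in both experiments. On day 2 Tpm1 and Tmsb10 (aa537404_f_at) were above day 0 in B (0.34 and 0.12) but slightly below it in A (-0.01 and -0.16).

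**Figure D4:**
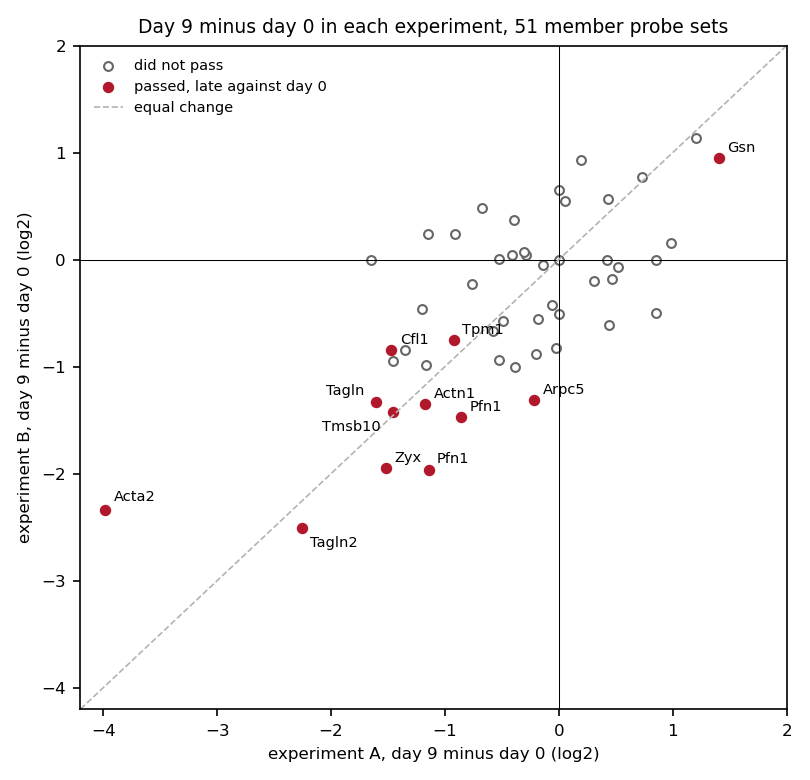
Difference between day 9 and day 0 (log2) in experiment B (y axis) against that in experiment A (x axis) for the 51 tested probe sets. Filled points passed late against day 0 and carry the gene's name, the dashed line marks equal change, and all 12 filled points have the same sign in both experiments. The fit that picked these 12 points includes the arrays drawn here, so their shared sign is no separate check. For Arpc5 the direction was fixed by the filter on dim values, and for Acta2 too a late change could only be a decrease.

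Other genes of actin regulation, 46 with 61 probe sets of which 45 were tested, were counted in the same fits: 1 rose early (2.22%), 1 rose and 2 fell in the middle phase (6.67%) and 2 rose and 2 fell late (8.89%), against the backgrounds of 3.49%, 8.19% and 10.9%. Both probe sets of Anln, for anillin of the cytokinetic ring, fell late (log2 changes -2.79 ± 0.59 and -2.46 ± 0.42, adjusted p = 0.00412 and 0.000829). Myl12b, a regulatory light chain of non-muscle myosin II, rose early (1.15 ± 0.29, adjusted p = 0.0333) and late (0.97 ± 0.28, adjusted p = 0.0326), and Add1, adducin of the spectrin and actin meshwork, rose late (1.28 ± 0.33, adjusted p = 0.0149). With experiment as a block in limma, 3 of 45 passed early (background 6.07%). Add1 (higher, adjusted p = 0.0187) and 1 Anln probe set (lower, adjusted p = 0.0222) then joined Myl12b. In the middle phase Myl12b passed higher with the block (adjusted p = 0.0281, and 0.0506 without it). Late against early 0 of 45 passed in limma without the block, 7 had an unadjusted p under 0.05 (773 of 7726 in all), and 2 passed lower with the block (Tmod3 and aa666918_g_at of Iqgap1, background 2.38%). The other tested Iqgap1 probe sets did not pass with the block (adjusted p from 0.13 to 0.582). On aa666918_g_at 3 of 5 late arrays were at the floor.

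Acta2 and Tagln are also markers of smooth muscle, and other cell types were read from marker lists. Of 8 smooth muscle markers 7 had a probe set and 5 were above the floor on at least 2 arrays, while Mylk was at the floor on all arrays and Myh11 above it on 1. On design a, without Acta2, their summed intensity was 2301 to 4428 on late arrays, 1861 to 4296 on middle, 2964 to 7103 on early and 3618 to 8583 on day 0 arrays. Most of that sum was Tagln (548 to 4267 over all arrays) and Actg2 (1220 to 4057, from a probe set ending in f_at). Late against day 0, 2 of the 5 tested probe sets of this list fell, namely those of Acta2 and Tagln themselves (background 6.08%). The other 3 were not called, among them Actg2 (log2 change -0.43 ± 0.37) and Cnn1 (0.14 ± 0.53). Of 12 skeletal and cardiac muscle markers 11 had a probe set and 8 were above the floor on at least 2 arrays. Myog read 315 to 2080 over all arrays, while Acta1, Tnnc1 and Tnnt3 were at the floor throughout. Late against day 0, 0 of 10 tested probe sets of that list were called, and 0 of 2 of the endothelial list. Epithelial markers summed to 875 to 1309 on late and 4516 to 5847 on day 0 arrays of design a, with Cdh1, Cldn3, Epcam and Krt19 at the floor throughout. Nearly all of that sum was Krt18, a keratin, at 453 to 1129 late and 4234 to 5437 at day 0, and it was the 1 of 4 tested epithelial probe sets called, with a list median of -0.03 (log2). Mesenchymal markers summed to 9171 to 24365 on late and 6175 to 7217 on day 0 arrays of design b, a rise carried by Dcn, for the matrix protein decorin, at 5146 to 22560 late and 61 to 89 at day 0. Of the 7 tested mesenchymal probe sets Dcn was called higher, Vim, for vimentin, lower (1199 to 3544 late and 5831 to 6719 at day 0), and 5 were not called. Of 12 otic and hair cell markers 7 had a probe set and 5 were above the floor on at least 2 arrays, with Atoh1 and Sox2 at the floor on all. Their sum on design b was 901 to 1696 late and 357 to 658 at day 0, and of 6 tested probe sets Gata3, for a transcription factor of the developing ear, was called higher (1.59 ± 0.46, adjusted p = 0.0311). Macrophage markers summed to 3424 to 12904 late and 1565 to 5119 at day 0 on design a, most of it Lyz2 and Ptprc, with 0 of 5 called in limma and 2 at an unadjusted p under 0.05. Late against day 0, 10.9% of all tested probe sets were called (4.84% higher, 6.08% lower) and 22.4% had an unadjusted limma p under 0.05. The part of these other markers in the changes of the actin genes was not tested.

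Beta-actin could also be read on both designs from its 3 control probe sets, which were left out of the tests. On design a their mean was 12090 to 25250 on late arrays, and 41500 (A) and 8223 (B) at day 0; on design b it was 11510 to 39250 on late arrays, and 22210 (A) and 5538 (B) at day 0. The mean log2 difference of late from day 0 on design a was -0.95 in A and 0.56 in B, while design b gave 0.43 in A and 1.06 in B, so for experiment A the sign differed between the designs. The ratio of 3′ to 5′ control signal, a sign of RNA quality, was 1.04 to 1.65 late, 1.02 to 1.89 in the middle phase and 0.849 to 1.12 at day 0 for beta-actin on design a. For Gapdh on design a it was 0.77 to 1.59 late, 0.847 to 2.65 in the middle phase and 0.759 to 1.5 at day 0. Experiment B also had a narrower range of intensities on design b (99th percentile 5927 to 7193, against 8446 to 10000 in A), and it makes up 1 of 2 day 0 arrays but 1 of 5 late arrays. The part of these differences in the phase comparisons was not tested.

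**Figure D5:**
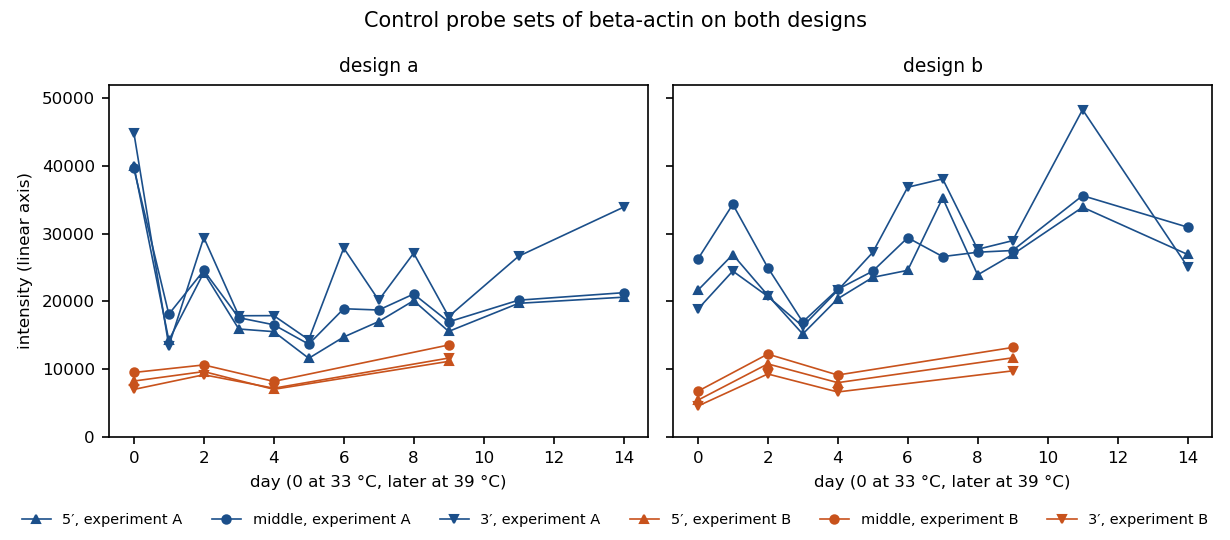
Intensity (y axis, linear) by day (x axis) of the 5′, middle and 3′ control probe sets of beta-actin on design a (left) and design b (right), for experiments A (blue) and B (orange). The day 0 array of A averages 41500 on design a, against 22210 on design b, and on each day with both experiments the B values lie below those of A.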

How the data were processed

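Total RNA of UB/OC-1 cells was measured on 16 arrays of each of 2 designs. Per the deposited tables, each value is an array intensity that the authors had scaled, as the values show: linear whole numbers, negative in 22.9% (design a) and 33% (design b) of cases, with trimmed means of 300.4 to 300.8 (2% left out at each end). Which software, background method and scaling procedure were used is not stated in the labels used here. They were used as deposited, and 0 columns were left unused. Values under a floor, the 75th percentile of the size of a design's negative values (141 and 198), were set to it before log2. Probe sets above the floor on at least 2 arrays were tested (4294 and 3432) after 61 controls per design were left out. R 4.3.3 and limma 3.58.1 (lmFit, eBayes with trend and robust) fitted each design, all phases together, with two-sided contrasts, a natural spline of day (3 degrees of freedom, F-test) and Benjamini-Hochberg adjustment over both designs. Precision is limited by the number of arrays, and ties at the floor carry no spread, which can make such p-values too small. Where all arrays of a group are at the floor, the fold is a lower bound.

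Labels share the experiment between days, and the A minus B differences of the days correlated with each other over probe sets (r 0.27 to 0.73, with 6 pairs of days per design), so experiment was also fitted as a block, with values beside a result where a call between phases changed. Days stand in as samples of a phase, so its spread includes change within it. Members, role groups, marker lists and phases were chosen with earlier results of these data known. Values on every array were printed for member probe sets past the threshold between phases and for the brightest probe sets of chosen genes. Gene names are those of the platform annotation, and sequences are from RefSeq. Some of the 37 genes count in the totals but are not reported here by name. The fit was tested on simulated data. Alternatives were other floors, filters, quantile normalization, a plain eBayes, the block, experiment A alone, and leaving out each culture.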

Additional observations from a re-analysis of the deposited data

Results flagged for a closer look

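Each phase of 4 or 5 arrays was searched for an array far from the others, over the 45 groups of the probe sets described array by array, and 4 stood apart. Chance gives about 1 in 20 where values are not tied. In a phase whose other arrays all tie at the floor, as for Acta2 and Arpc5 here, any array above it is flagged. The 4 of 45 can therefore not be set against that rate. The middle array of Acta2 on day 5 of experiment A read 210, just above the floor of 198, while the other 4 arrays of the phase were at or below it and so tied. For Pfn1 (X14425_f_at), day 4 of experiment B read 2615 in the middle phase, where the next array read 1555, and day 11 of experiment A read 265 in the late phase, where the next read 1015. Arpc5 on day 2 of experiment B read 256 in the early phase, against 137 for the next array, and the other 3 arrays were at the floor.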

How the results depend on the processing

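Member counts moved most with experiment A alone, with the replicate block and with single cultures. With experiment as a block, 12 probe sets passed in the middle phase (7 without it), 8 late against early (3 without it) and 23 in the time course (14 without it). The block left the early count (3, against 2) and the late count (16, against 12) within 1.5 times. In experiment A alone 1 passed early (Acta2, lower, while both Gsn calls were lost at adjusted p = 0.0622 and 0.257), 4 in the middle phase and 6 late, and with no filter on dim probe sets 1 passed early. Leaving out 1 culture at a time gave 1 to 4 early, 3 to 10 in the middle phase, 6 to 13 late, 2 to 5 late against early and 11 to 15 in the time course. Of the 24 calls between phases, 8 held under every alternative that was run (Acta2 middle and late, Tmsb10 late and late against early, Tpm1 late against early, Tagln2 middle and late, Zyx late), and no called value changed its sign. Acta2 was above the floor on 7 arrays, so the filter on 8 arrays left it untested and its calls had 23 alternatives. The late call of Tagln was also lost in 5 alternatives other than leaving out a culture (adjusted p from 0.0593 to 0.126), and that of Actn1 in 5 (0.0554 to 0.219). Late against early, Acta2 was lost with the higher floor (adjusted p = 0.458) and with no filter (0.0822). In experiment A alone, Pfn1 (0.0561 and 0.122), Gsn (0.0686) and Arpc5 (0.0614) did not pass late. The cause was not tested. Brightness over the floor limits Acta2 and Arpc5, and 7 of the 51 tested probe sets were above the floor on fewer than 8 arrays.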
